A study of Xenopus tropicalis with 12 samples.

Results

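From 19921 genes counted in the intestine of Xenopus tropicalis tadpoles, a set of 49 was taken that were highest in untreated wild-type intestine and at least 2-fold lower both in wild-type intestine exposed to T3, the active thyroid hormone, and in untreated intestine lacking the T3 receptor TRα. The 49 genes were selected on the group means of the same libraries that are described here. The rule asked for at least 2 CPM (read counts scaled to a common library size with TMM factors) in the highest group and, with 0.5 CPM added to each mean, a log2 ratio of -1 or lower in T3WT over contWT and in contHomo over contWT, and a log2 ratio between -1 and 1 in T3Homo over contHomo. These 3 ratios are therefore given as a description, without a test. All 49 genes passed the filter on low counts and are among the 13172 genes tested. The selected level in contWT is enough to pass it, so passing says nothing about the other groups.

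The tadpoles were wild type or TRα(-/-), born of shared parents, at stages labelled 52 to 54, and were exposed or not to 10 nM T3 for 18 hours. There were 3 libraries for each of 4 groups, named here by the column labels of the count table. By those labels T3Homo is TRα(-/-) with T3, T3WT is wild type with T3, contHomo is TRα(-/-) without T3, and contWT is wild type without T3. The sample titles contradict this for 2 groups: there T3WT stands for TRα(-/-) without T3, and contHomo for wild type with T3. T3Homo and contWT have the same identity under both. The selection treats T3WT and contHomo alike against contWT, so the genes were low both in wild type with T3 and in untreated TRα(-/-) under either reading. The limit on T3Homo over contHomo compares TRα(-/-) with and without T3 by the column labels, and TRα(-/-) with wild type, both with T3, by the titles. RNA of several tadpoles was merged into 1 pool per group and sequenced as 3 technical libraries. Errors and p-values here thus reflect variation among libraries made from a pool and not among animals.

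Thyroid hormone drives frog metamorphosis, in which the larval intestine loses most of its epithelium and builds an adult one from stem cells. TRα is a nuclear receptor that binds DNA at thyroid hormone response elements with or without hormone. Without hormone it recruits corepressors and holds T3-induced genes down, and with hormone it recruits coactivators. Genes that T3 lowers are also known, and how the receptor acts on them is less settled.

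Library totals lay between 34322099 and 44755390 counts. TMM factors of T3WT libraries were 1.21 to 1.22, those of the remaining libraries 0.913 to 0.957, and T3WT libraries had 15236 to 15327 genes with a count, against 14751 to 14888 in the others. The files give identifiers without names, and 0 of the 49 identifiers could be matched in the reference gene table, so the genes are described by their position on the table's scaffolds and their functions are not given. The gene for TRα and markers of intestinal cell types could not be looked up for the same reason, and the tissue label was not checked. In RNA from whole intestine, fewer cells of a type and less RNA per cell cannot be told apart.

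By selection, the 49 genes lay below contWT in every other group: directly in T3WT and contHomo, and in T3Homo through its limit against contHomo. Their summed level was 792.4 ± 2.22 CPM in T3Homo, 940.4 ± 3.17 CPM in T3WT, 843.9 ± 1.71 CPM in contHomo and 3023 ± 24.1 CPM in contWT (SD, n = 3 libraries each). A single gene on scaffold GL172721.1 made up 9.63% of that sum in T3Homo, 21.3% in T3WT, 10.1% in contHomo and 30.2% in contWT. Without it the sums were 716.1 ± 1.22 CPM in T3Homo, 740.5 ± 4.08 CPM in T3WT, 758.5 ± 1.07 CPM in contHomo and 2109.1 ± 9.61 CPM in contWT. The order of T3WT and contHomo thus depended on that gene.

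Individual genes covered a wide range of levels. Group means ran from 0.00811 to 172.5 CPM in T3Homo, with a median of 2.91 CPM. They ran from 0.164 to 200 CPM in T3WT, with a median of 4.14 CPM, and from 0.119 to 156.1 CPM in contHomo, with a median of 4.64 CPM. In contWT they ran from 2.01 to 913.9 CPM, with a median of 16.8 CPM. Per kilobase of summed exon length, the median gene of the set stood at the 43.1st percentile of the tested genes in T3Homo, the 50.5th in T3WT, the 48.8th in contHomo and the 75.4th in contWT. On this scale 22 of the 49 were above the middle of the tested genes in T3Homo, 25 in T3WT, 24 in contHomo and 38 in contWT. Libraries of a group lay close together: over members at 2 CPM or more, the median coefficient of variation was 2.82% in T3Homo, 2.53% in T3WT, 3.11% in contHomo and 2.86% in contWT.

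**Figure D1:**
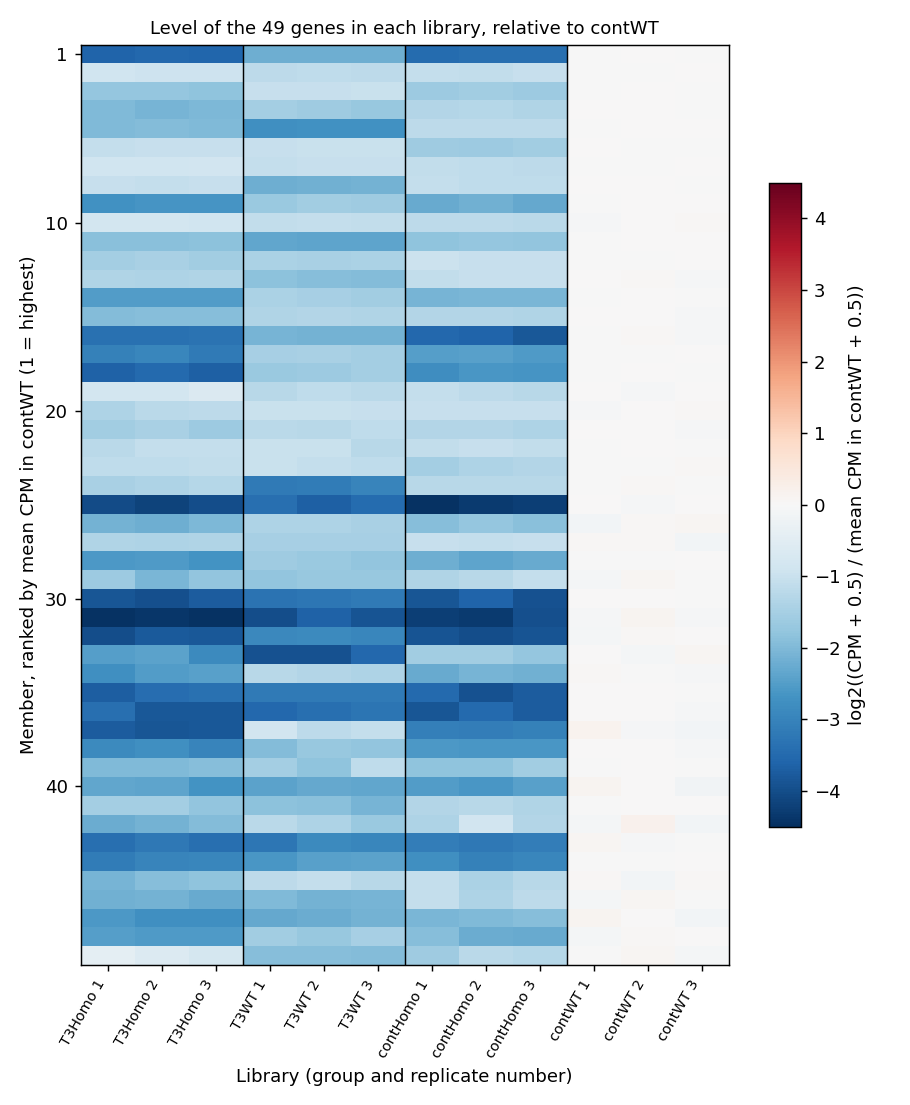
Colour gives the log2 ratio of each library's CPM to the contWT mean (0.5 CPM added to both) for the 49 genes (rows, highest in contWT at the top) in the 12 libraries (columns), grouped as T3Homo, T3WT, contHomo and contWT. The contWT columns stand highest, as the selection requires, and the 3 libraries of a group look alike for most genes.

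The genes differed in how much of the contWT level was left. Relative to contWT, the median level was 17.0% in T3Homo (range 0.0774% to 58.1%), 28.2% in T3WT (2.46% to 49.2%) and 28.9% in contHomo (1.13% to 49.2%). At most 10% of the contWT level was left for 16 genes in T3Homo, 12 in T3WT and 12 in contHomo. On the log2 scale with 0.5 CPM added, the median ratio to contWT was -2.10 in T3Homo, -1.61 in T3WT and -1.62 in contHomo, beside medians of 0.01, 0.04 and -0.02 over all tested genes. The T3Homo over contHomo ratio had a median of -0.24 (range -0.99 to 0.74), with 35 genes below 0 and 14 above, beside 0.01 over all tested genes.

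T3Homo was most often the lowest group. It was lowest for 28 genes, T3WT for 11 and contHomo for 10. The most frequent order of the group means, in 21 genes, placed T3Homo lowest, then contHomo, then T3WT, then contWT. The second highest group was T3Homo for 6 genes, T3WT for 29 and contHomo for 14. These ranks include genes whose means nearly tie, and 16 members had less than 1 CPM in T3Homo. No test was made of these orders, and their shares over all tested genes were not worked out.

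**Figure D2:**
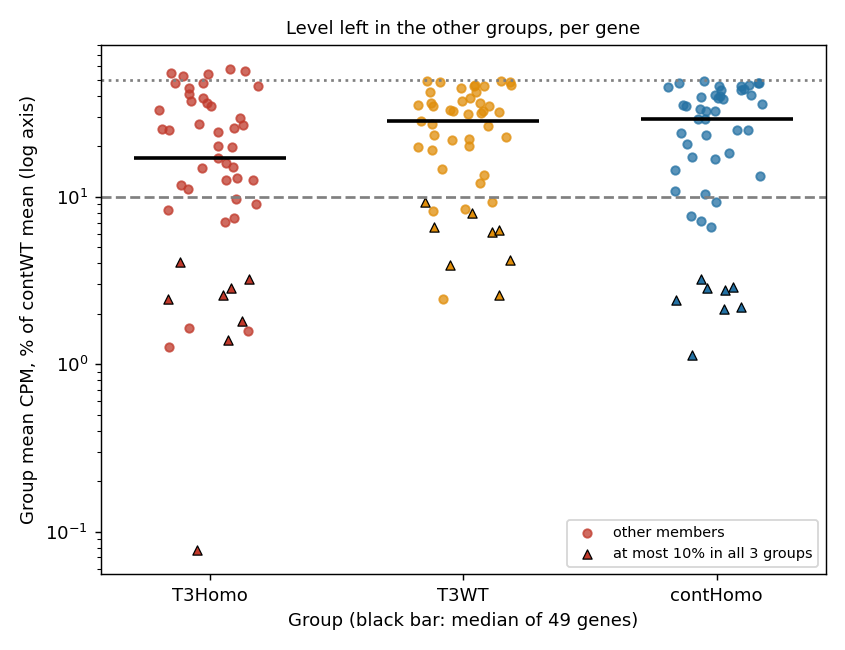
Level left in T3Homo, T3WT and contHomo as a percentage of contWT on a log axis, 1 point per gene, with a black bar at the median, triangles for the 8 genes at or below 10% in all 3 groups, and lines at 50% and 10%. The medians are 17.0% in T3Homo, 28.2% in T3WT and 28.9% in contHomo, and the points of T3Homo reach lowest, to 0.0774%.

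The gene with the highest level lies on scaffold GL172721.1 from 2401448 to 2420376 on the plus strand and has 14 exons. It had 75.3, 77.7 and 75.8 CPM in T3Homo, 201, 198 and 200 CPM in T3WT, 83.3, 86.3 and 86.6 CPM in contHomo, and 909, 931 and 903 CPM in contWT. No library of one group reached the range of another. T3Homo and contHomo lay close together, as the selection asks, and T3WT lay between them and contWT. In contWT its level per kilobase stood at the 97.67th percentile of the tested genes.

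The next gene downstream on that scaffold, 8678 bases away with 0 genes between, also had T3WT between contWT and the other groups, at a lower level. It runs from 2429055 to 2436285 on the plus strand, with 7 exons. It had 4.97, 4.94 and 5.07 CPM in T3Homo, 12.6, 12.5 and 12.5 CPM in T3WT, 4.33, 4.08 and 3.47 CPM in contHomo, and 55.5, 58.0 and 53.2 CPM in contWT. The 2 genes have 3 consecutive exons of equal length, 138, 151 and 109 bases, a run found in 2 genes of the whole table. How reads with several alignments were counted is not given in the sources used here, so the levels of such look-alike genes are uncertain. The flanking gene on the other side, from 2368127 to 2390055, is not one of the 49: it had 459.7 ± 5.70 CPM in T3Homo, 1517.7 ± 12.6 CPM in T3WT, 429.2 ± 8.08 CPM in contHomo and 1054.6 ± 12.2 CPM in contWT (SD, n = 3). It was low in T3Homo and contHomo, but higher in T3WT than in contWT, with a log2 ratio of 0.53.

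The abundant members differed in how much was left. In all, 16 genes had 50 CPM or more in contWT. The second in level, a 2-exon gene at 111645 on GL173025.1, had 172.5 ± 1.90 CPM in T3Homo, 146.1 ± 2.62 CPM in T3WT, 156.1 ± 3.55 CPM in contHomo and 327.8 ± 2.86 CPM in contWT (SD, n = 3). It kept 52.6%, 44.6% and 47.6% of the contWT level in T3Homo, T3WT and contHomo. In an 18-exon gene at 40469 on GL173755.1, T3WT was the lowest group. This gene had 29.2 ± 0.823 CPM in T3Homo, 17.1 ± 0.168 CPM in T3WT, 51.3 ± 0.648 CPM in contHomo and 116.4 ± 0.479 CPM in contWT. By contrast, in a 4-exon gene at 550686 on GL172892.1, T3WT was the highest group after contWT. That gene had 14.7 ± 0.426 CPM in T3Homo, 31.7 ± 1.4 CPM in T3WT, 20.2 ± 1.15 CPM in contHomo and 97.6 ± 0.718 CPM in contWT.

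A subset of 8 genes had at most 10% of the contWT level in each of the other groups. This subset was chosen after the values were seen. Their mean levels were 0.00811 to 0.540 CPM in T3Homo, 0.205 to 1.02 CPM in T3WT, 0.119 to 0.371 CPM in contHomo and 4.16 to 16.8 CPM in contWT. Over the 3 libraries of a group they summed to 230 counts in T3Homo, 608 in T3WT, 194 in contHomo and 7933 in contWT. A floor of 3 counts in a library corresponded to 0.0640 to 0.0921 CPM, and this floor covers counting error only. The lowest T3Homo mean lay below it. The T3Homo means at 719 on GL175354.1 and 159862 on GL172942.1, 0.0734 and 0.0749 CPM, lay within its range. Every T3WT mean lay above it.

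Most of these 8 genes came in pairs on a scaffold. A 3-exon gene at 800053 and a 1-exon gene at 812189 lie 11296 bases apart on GL172941.1. A 2-exon gene at 719 and a 1-exon gene at 11307 are the 2 genes of GL175354.1, with 9781 bases between. The pair on GL172942.1, at 159862 and 1042895, is of 1 exon each with a length of 1923 bases. An exon of that length is found in 3 genes of the table, of which 2 have a single exon. The pair is 881110 bases apart with 14 other genes between. The 1-exon genes on GL175354.1 and GL172941.1 are also of equal length, 648 bases. An exon of that length is found in 13 genes of the table, of which 3 have a single exon. The remaining 2 genes lie on GL172876.1 and GL173124.1. In all, 5 of the 8 had a single exon, against 1 of the other 41. Equal lengths are also what near-identical copies would show, and the sequences were not used here, so counts of the single genes are uncertain.

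The selection set no limit on T3Homo over T3WT, nor on T3WT over contHomo, and the first was tested. By the column labels it compares TRα(-/-) with wild type, both with T3, and by the titles it compares TRα(-/-) with and without T3. The log2 ratio of T3Homo to T3WT is the sum of the ratios T3Homo over contHomo and contHomo over contWT minus that of T3WT over contWT, all 3 of which chose the genes. The calls are therefore not independent of the selection, and the shares over all tested genes are given as background from which nothing is read. Of the 49 genes, 19 were lower in T3Homo and 4 were higher (edgeR's quasi-likelihood test, Benjamini-Hochberg adjusted p below 0.05 and at least 2-fold), and 26 were not called. The 19 are 38.8% of the set and the 4 are 8.16%. Over all 13172 tested genes, 13.4% were called lower and 2.76% higher. The median fitted log2 fold change was -0.66 over the set and -0.02 over all tested genes, with 36 members below 0 and 13 above.

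The count depended on the fold asked for. By the adjusted p alone, 29 of the 49 were lower and 12 higher in T3Homo than in T3WT, beside 38.9% lower and 37.2% higher over all tested genes. When edgeR's glmTreat tested against a change of 2-fold, 13 were lower and 4 higher, beside 8.41% and 1.76% of all tested genes. Of the 19 genes called lower, 17 also had contHomo below T3WT, and of the 4 called higher 0 had. The selection keeps T3Homo within 2-fold of contHomo once 0.5 CPM is added to each mean, so these directions are tied to each other. Before that addition, low genes could differ more: ENSXETG00000031046 had 0.138 CPM in T3Homo and 0.551 CPM in contHomo. Calls came at all levels. Of the 16 genes with at least 50 CPM in contWT, 4 were lower, 1 was higher and 11 were not called, and of the other 33, 15 were lower, 3 higher and 15 not called. Over all tested genes at any level, 13.4% were called lower and 2.76% higher. Shares over all tested genes at these levels were not worked out, and the difference between the level groups was not tested.

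**Figure D3:**
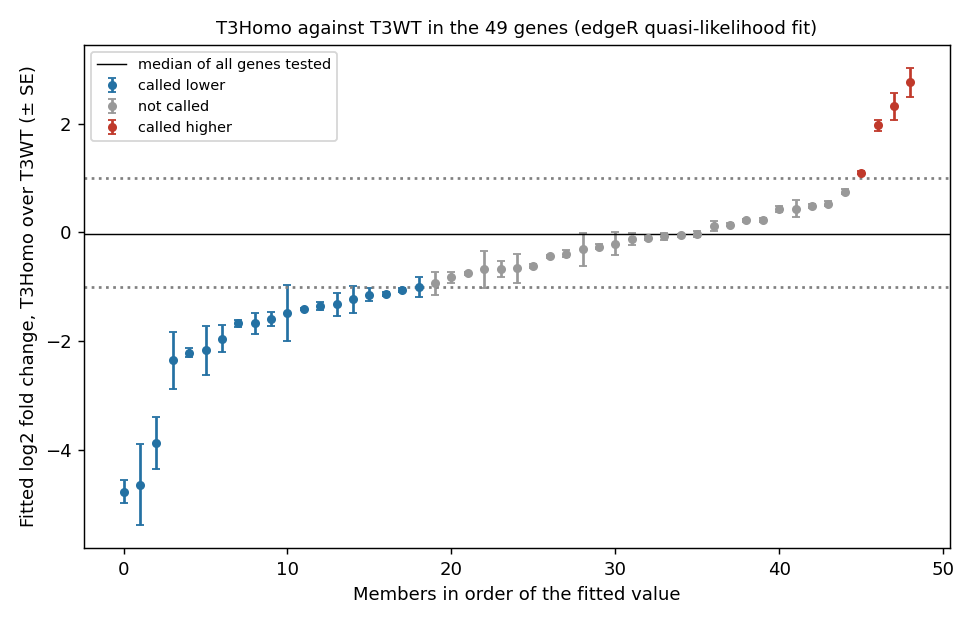
Fitted log2 fold change of T3Homo over T3WT for each of the 49 genes with its standard error, with the genes called lower (19) and higher (4) marked. The calls run from -4.76 to 2.76, and 26 genes are not called.

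Among genes with at least 5 CPM in contWT, ENSXETG00000031046 had the largest called fall in T3Homo against T3WT. It lies on GL172646.1 from 5133554 to 5135755, plus strand, with 6 exons. It had 0.163, 0.122 and 0.130 CPM in T3Homo, 4.34, 3.43 and 3.67 CPM in T3WT, 0.548, 0.522 and 0.583 CPM in contHomo, and 9.43, 7.98 and 7.71 CPM in contWT. The 4 groups did not overlap. The log2 fold change of T3Homo over T3WT was -4.76 ± 0.21 (SE), with an adjusted p of 1.83e-37. This gene kept 45.5% of the contWT level in T3WT, but 1.65% in T3Homo and 6.58% in contHomo.

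ENSXETG00000026601, at 1039070 to 1048447 on the plus strand of GL172876.1 with 6 exons, had the second largest fall. Its counts were 0, 1 and 0 in T3Homo, 8, 18 and 11 in T3WT, 3, 2 and 8 in contHomo, and 357, 401 and 328 in contWT. T3Homo held a single count, and contHomo and T3WT stood far below contWT. From 1 against 37 counts, scaled by library size, the ratio of T3Homo to T3WT was 0.0297, with an exact (Clopper-Pearson) 95% interval of 0.000731 to 0.176 for counting error only. The fitted log2 fold change was -4.63 ± 0.75 (SE), adjusted p 4.89e-08. Without T3Homo replicate 2, which held the single count, T3Homo has 0 counts and the fitted value depends on the prior count, so no fold is given.

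The 4 genes higher in T3Homo than in T3WT had T3WT as their lowest group. The selection limit on T3Homo over contHomo and the 2-fold call together all but fix this, so nothing is read from it. ENSXETG00000026395, with 2 exons at 18954 to 19406 on the minus strand of GL174923.1, had 1.33, 1.41 and 0.883 CPM in T3Homo, 0.167, 0.171 and 0.373 CPM in T3WT, 2.93, 2.95 and 2.55 CPM in contHomo, and 9.71, 9.06 and 10.2 CPM in contWT. Its log2 fold change was 2.32 ± 0.25 (SE), adjusted p 5.06e-14, and the groups did not overlap. ENSXETG00000003683, with 11 exons at 654747 to 712790 on the plus strand of GL173115.1, had 6.19, 6.5 and 6.99 CPM in T3Homo, 1.53, 1.58 and 1.85 CPM in T3WT, 7.09, 7.24 and 7.24 CPM in contHomo, and 17.4, 18.4 and 17.3 CPM in contWT. Its log2 fold change was 1.97 ± 0.10 (SE), adjusted p 1.37e-33. T3Homo was thus close to contHomo, as the selection asks, and well above T3WT.

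The other 2 higher genes have 19 and 41 exons. A 19-exon gene at 115746 to 170626 on GL173079.1 had 50.2, 49.7 and 50.3 CPM in T3Homo, 22.2, 23.2 and 23.5 CPM in T3WT, 49, 46.8 and 47.4 CPM in contHomo, and 104, 106 and 103 CPM in contWT. Its log2 fold change was 1.10 ± 0.03 (SE), adjusted p 6.71e-51, just past the 2-fold limit. A 41-exon gene at 102868 to 323788 on GL173272.1 had 1.33, 1.14 and 0.935 CPM in T3Homo, 0.167, 0.171 and 0.154 CPM in T3WT, 0.329, 0.583 and 0.530 CPM in contHomo, and 1.99, 2.14 and 1.89 CPM in contWT. Its log2 fold change was 2.76 ± 0.27 (SE), adjusted p 8.23e-16. It is the gene that keeps the largest share of contWT in T3Homo among those called, 56.6%, and it is also the one with the lowest contWT level of the set.

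**Figure D4:**
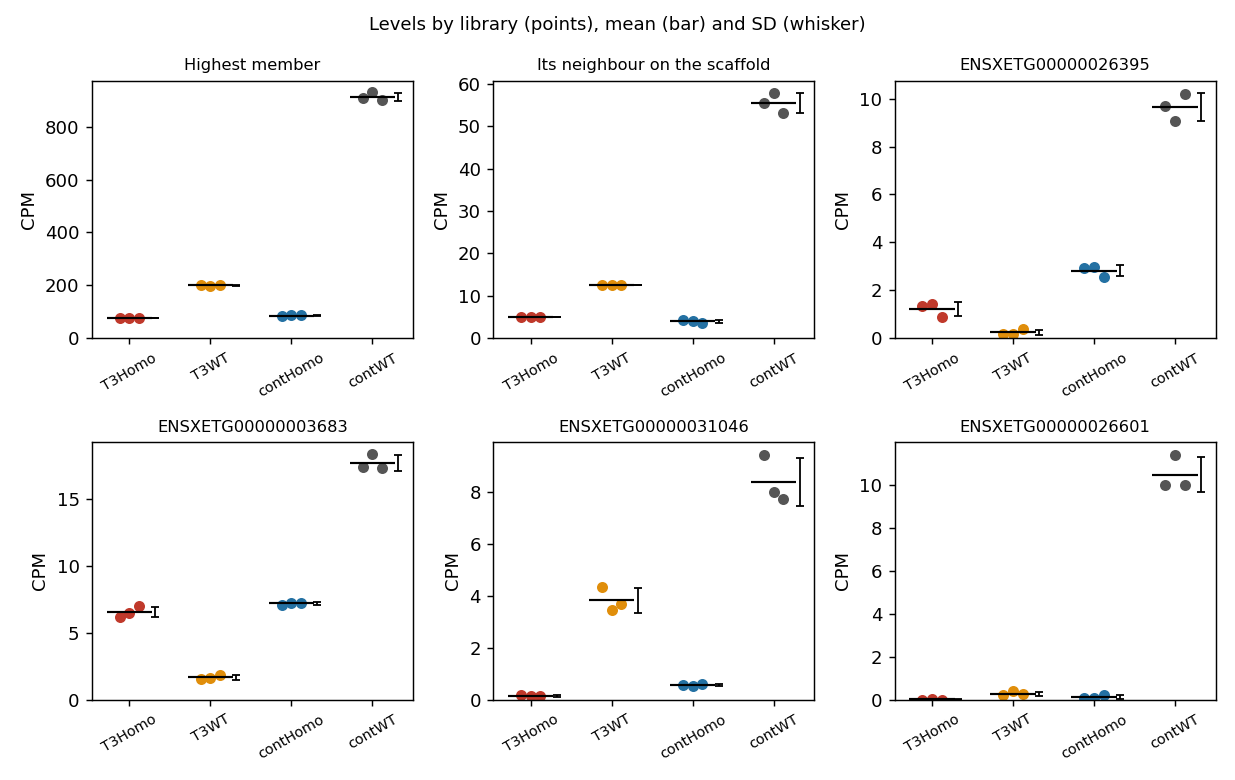
CPM in each library (points), with the mean (bar) and SD (whisker) of 3 libraries, in T3Homo, T3WT, contHomo and contWT, for the highest member, its scaffold neighbour and the 4 genes given by identifier. contWT is the highest group throughout, while T3WT lies above T3Homo for the 2 genes called lower by identifier and below it for the 2 called higher.

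Of the genes called lower, the highest member fell by 1.41 ± 0.02 (SE) on the log2 scale in T3Homo against T3WT, adjusted p 1.28e-76, and its neighbour on GL172721.1 fell by 1.35 ± 0.07, adjusted p 2.47e-34. Among the 8 genes with at most 10% of the contWT level in every other group, 5 were lower, 0 were higher and 3 were not called. Over all tested genes, 13.4% were called lower and 2.76% higher. The 8 were chosen on the same means, so nothing is read from this count. Of the 5, those at 1039070 on GL172876.1, 719 on GL175354.1 and 159862 on GL172942.1 held only 1, 9 and 9 counts in T3Homo over 3 libraries. The genes at 1039070 and 719 passed the filter on low counts only through contWT. The summed level of these 8 was 1.88 ± 0.148 CPM in T3Homo, 4.52 ± 0.246 CPM in T3WT, 1.81 ± 0.0564 CPM in contHomo and 76.6 ± 0.592 CPM in contWT (SD, n = 3). T3Homo and contHomo differed by less than the SD between T3Homo libraries in this sum, and both lay below T3WT. The 8 genes were chosen for low values in all 3 groups, so this closeness is a description. The sum does not show how single genes differ.

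On GL172646.1 a cluster of 3 members spans 5071172 to 5170545, and each was lower in T3Homo than in T3WT. The outer 2, with 5 exons each, had log2 fold changes of -1.67 ± 0.06 and -2.21 ± 0.08 (SE), adjusted p 1.27e-43 and 6.96e-45. The one at 5071172 had 5.01 ± 0.473 CPM in T3Homo, 15.8 ± 0.400 CPM in T3WT, 7.64 ± 0.363 CPM in contHomo and 45.2 ± 0.783 CPM in contWT. The one at 5167799 had 2.51 ± 0.174 CPM in T3Homo, 11.5 ± 0.668 CPM in T3WT, 5.15 ± 0.355 CPM in contHomo and 35.8 ± 0.534 CPM in contWT (SD, n = 3). The order of the groups was the same in both. They have 2 consecutive exons of 172 and 202 bases in common, a run found in 3 genes of the table. A member on GL186389.1, at 3155 to 6798, shares a run of 192 and 4 bases with the first, also found in 3 genes, and had 1.21 ± 0.199 CPM in T3Homo, 3.57 ± 0.171 CPM in T3WT, 1.76 ± 0.130 CPM in contHomo and 9.62 ± 0.376 CPM in contWT. Its log2 fold change was -1.59 ± 0.13 (SE), adjusted p 8.37e-21. Between the members on GL172646.1 lie 2 tested genes that met the limits against contWT but missed the limit on T3Homo over contHomo. The 10-exon gene at 5124826 had 0.309 ± 0.0432 CPM in T3Homo, 2.65 ± 0.326 CPM in T3WT, 1.24 ± 0.0768 CPM in contHomo and 19.7 ± 0.573 CPM in contWT (SD, n = 3). The 6-exon gene at 5080775 had 0.0491 ± 0.00266 CPM in T3Homo, under the floor of 3 counts, 1.25 ± 0.0813 CPM in T3WT, 0.7 ± 0.292 CPM in contHomo and 6.41 ± 0.19 CPM in contWT. The other 3 tested neighbours on this scaffold did not meet the limit on T3WT over contWT. Their log2 ratios of T3WT over contWT were -0.42 for the gene at 5143995, between members, -0.40 for that at 5180804, beyond the last member, and 1.01 for that at 5060717, before the first. Their log2 ratios of contHomo over contWT were -1.42 at 5143995, -1.89 at 5180804 and 0.01 at 5060717.

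Several genes were nearly level between T3Homo, T3WT and contHomo. A 6-exon gene at 697646 on GL172963.1 had 10.6 ± 0.639 CPM in T3Homo, 10.7 ± 1.06 CPM in T3WT, 10.7 ± 0.334 CPM in contHomo and 23.4 ± 0.238 CPM in contWT. In it the T3Homo over T3WT log2 fold change was -0.03 ± 0.06 (SE), adjusted p 0.624. A 3-exon gene at 2748552 on GL172718.1 was nearly level at a deeper loss, with 0.738 ± 0.167 CPM in T3Homo, 0.846 ± 0.055 CPM in T3WT, 0.680 ± 0.0644 CPM in contHomo and 6.32 ± 0.708 CPM in contWT (SD, n = 3). Its log2 fold change was -0.21 ± 0.21, adjusted p 0.357. By the adjusted p, 8 of the 49 genes, or 16.3%, did not pass the threshold between T3Homo and T3WT. Over all tested genes, 38.9% passed as lower and 37.2% as higher, and nothing is read from this count. Not passing is not being level in all 3 groups. The gene at 1629200 on GL172740.1 did not pass, with 54.2 CPM in T3Homo, 55.6 CPM in T3WT and 36.8 CPM in contHomo.

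The gene models of the set were shorter than those of the tested genes as a whole. The median number of exons was 5, against 9 over all tested genes, and the median summed exon length was 1452 bases, against 1781. A single exon was found in 6 members, or 12.2%, against 3.53% of the tested genes. The members lay on 42 scaffolds, with 24 on the plus strand, and 13 of them shared 1 of 6 scaffolds with another member. These are descriptions without a test. Members that share exon lengths or a scaffold are not independent examples.

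The nearest genes that are not members are described next, and the choice of neighbours partly fixes what they can show. An adjacent gene with the full pattern is itself a member and was left out, as in the pairs on GL172721.1 and GL175354.1. The nearest tested gene on each side that is not a member gave 77 genes. Their median log2 ratio to contWT was -0.08 in T3Homo, -0.06 in T3WT and -0.11 in contHomo. At least 2-fold lower than contWT were 7 of the 77 in T3Homo, 5 in T3WT and 6 in contHomo, and 3 were so in both T3WT and contHomo. These 3 are at 5080775 and 5124826 on GL172646.1 and at 216767 on GL172960.1. Of the 10677 genes with at least 2 CPM in a group, members included, 485 were so in T3WT, 153 in contHomo and 62 in both. The 62 hold the 49 members. The others are 11 genes at least 2-fold lower and 2 at least 2-fold higher in T3Homo over contHomo. The share among genes that are not members is thus smaller than 62 of 10677. No such count over all genes was made for T3Homo. The neighbours were not held to 2 CPM, and the shares were not compared by a test. For 4 members there was no such neighbour on the scaffold.

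**Figure D5:**
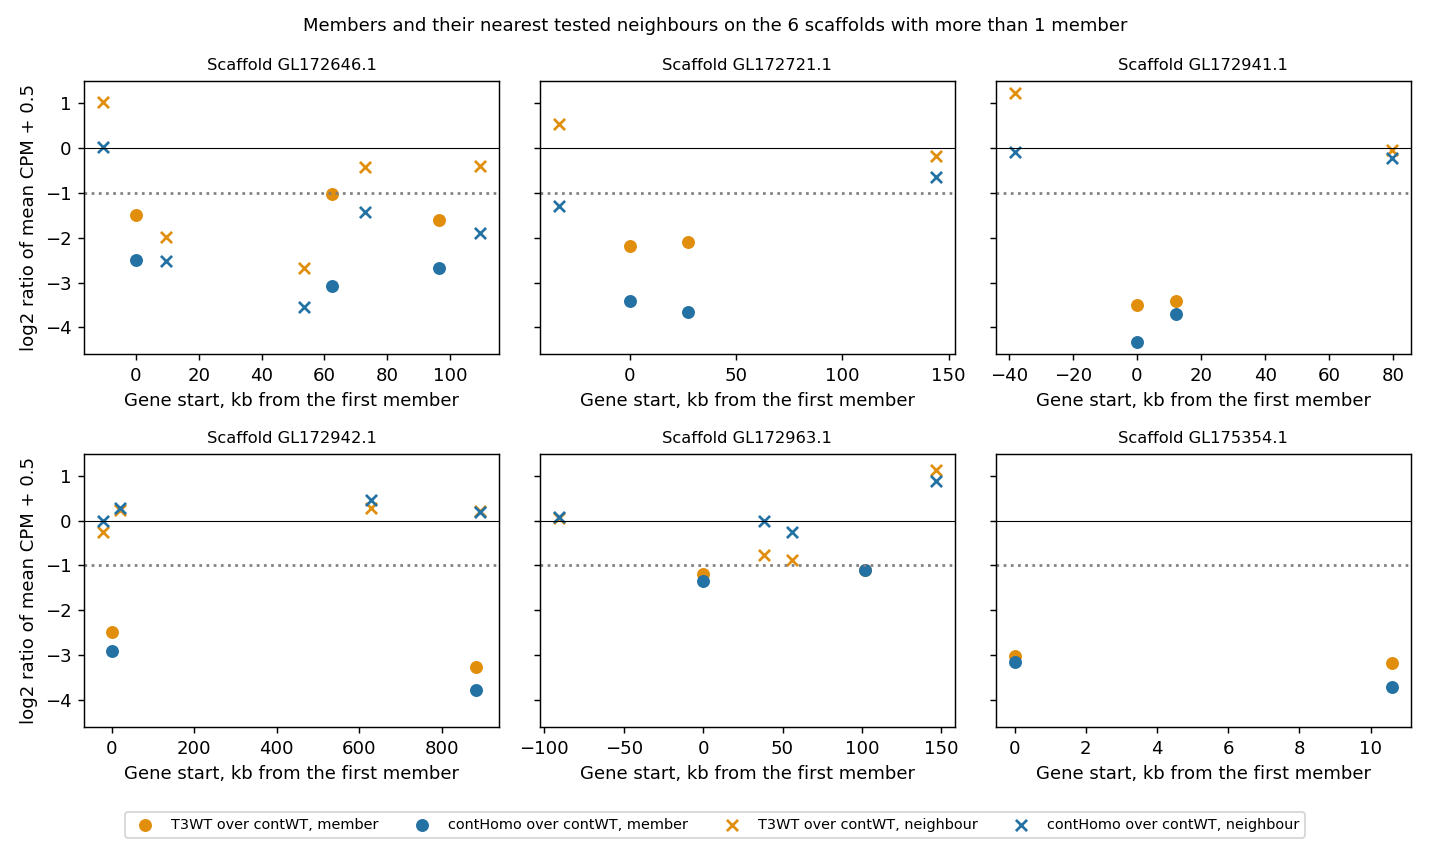
log2 ratios of T3WT and of contHomo to contWT (means with 0.5 CPM added) for the 13 members on the 6 scaffolds with more than 1 member, and for their nearest tested neighbours, against the distance of the gene start from the first member in kilobases. Members lie below the dotted line at -1 by selection, and on GL172721.1 the flanking gene lies at 0.53 in T3WT and -1.30 in contHomo.

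The 10 genes most like the highest member across libraries were members, and 9 of the next 10 were not. By Pearson's r of log2(CPM + 0.5) over 12 libraries from 4 pools, among 13171 other tested genes, the first was the 4-exon gene at 513836 on GL172929.1, with r = 0.999. It had 45.9 ± 1.49 CPM in T3Homo, 76.5 ± 1.60 CPM in T3WT, 50.9 ± 1.06 CPM in contHomo and 156.9 ± 1.41 CPM in contWT (SD, n = 3). The next were on GL172858.1 (r = 0.996), GL172786.1 (r = 0.993) and GL172892.1 (r = 0.992), and the tenth had r = 0.988. The next 10 had r of 0.987 to 0.980, so r ran on without a clear gap from members to other genes. The eleventh, a 4-exon gene at 727617 on GL173134.1 that is no member, had means of 217.6 CPM in T3Homo, 256.2 CPM in T3WT, 235.8 CPM in contHomo and 354.1 CPM in contWT, the same order with smaller differences. The selection used the same values, so the likeness is a description.

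The limits of the selection cut through a continuous range. Of the 10677 genes with at least 2 CPM in a group, 485 met the limit on T3WT over contWT and 153 that on contHomo over contWT. Both were met by 62 genes. With 0.5 CPM added to each mean, 49 of them stayed within 2-fold in T3Homo over contHomo. Of the rest, 11 were at least 2-fold lower there and 2 at least 2-fold higher. The members nearest the limit on T3WT over contWT had log2 ratios of -1.016 and -1.025, and the genes just outside had -0.968 and -0.946. For contHomo over contWT the values just inside were -1.014 and -1.037, and just outside -0.994 and -0.979.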

How the data were processed

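Intestinal RNA was sequenced in 12 libraries, 3 technical libraries for each of 4 pools. The authors deposited raw counts per gene, in whole numbers, per the file headers. The submitters' processing notes name STAR 2.5.3a and featureCounts 1.4.6-p3. Build and strandedness, and whether multi-mapping reads were counted, were not given in the sources used here, so overlapping, antisense and near-identical genes may share counts. All 12 value columns were used. Coordinates are those of the deposited table.

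TMM factors over all 19921 genes gave the CPM used for selection. Tests used filterByExpr (13172 genes), TMM and the quasi-likelihood test of edgeR 4.0.16 (R 4.3.3) in a single fit to all 12 libraries with a coefficient for each group. P-values were adjusted over all genes tested (Benjamini-Hochberg). The scripts were tested on simulated data. Calls needed an adjusted p below 0.05 and a change of at least 2-fold. Libraries of a group differed by more than sampling noise (chi-square per gene 1.22 to 1.72) and were counted separately. They remain technical libraries of a single pool, so the p-values do not cover variation among animals. The members, limits and lists were chosen with earlier results of these data known. Gene lists and cell type markers were fixed by symbol and could not be run, since no identifier was paired with a symbol. Identifiers are given for the 2 largest called rises and 2 largest called falls in T3Homo over T3WT among members with at least 5 CPM in contWT. Other genes, described by position, were chosen after their values were seen. Alternatives were RLE factors, total-count scaling, other filters, pseudocounts and limits, a replicate block, glmTreat, DESeq2 1.42.0, and leaving out each library.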

Additional observations from a re-analysis of the deposited data

How the results depend on the processing

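Membership varied with the limits more than with a library. Leaving out each library in turn gave 47 to 50 genes by the same rule, against 49. A log2 limit of 1.2 gave 31 genes and one of 0.8 gave 69. Adding 0.1 CPM in place of 0.5 CPM gave 43 genes, 39 of them among the 49. Adding 1 CPM gave 47, with 45 among the 49. Of the other settings, total-count scaling moved it furthest down, to 33 genes, all of them among the 49. That scaling sets the median T3WT over contWT log2 ratio of all tested genes to 0.39, against 0.04 with TMM, and 14 of the 49 then missed the limit on that ratio. In T3Homo against T3WT, leaving out a library gave 18 to 20 members called lower, against 19, and 4 called higher throughout. With the adjusted p alone, 29 were lower and 12 higher. RLE factors gave 18 and 4, DESeq2 18 and 4, glmTreat 13 and 4, no filter 18 and 4, and total-count scaling 23 and 3. With total-count scaling the median of all tested genes was -0.35 in this contrast. Shares over all tested genes were worked out only for the main fit, the adjusted p alone and glmTreat. Nothing about the members is read from the counts at the other settings. In T3Homo against T3WT, the 4 genes given by identifier kept their direction and call in every setting run. Their membership is less firm. Before 0.5 CPM is added, T3Homo and contHomo were more than 2-fold apart in ENSXETG00000026395 (1.21 and 2.81 CPM) and ENSXETG00000026601 (0.00811 and 0.119 CPM). The same was true of ENSXETG00000031046 (0.138 and 0.551 CPM). The replicate numbers did not pair the libraries: of 18 same-numbered pairs, the correlation of deviations from the group means was -0.074 to 0.108, and 1 library correlated best with its own number. A fit with the replicate block gave 19 lower and 4 higher. Members under 1 CPM, 16 in T3Homo, 13 in T3WT and 14 in contHomo, are limited by counting error.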
